A study of Mus musculus with 9 samples.

Results

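The 9 genes that mark microglia in the adult brain and are described here were measured in RNA sequencing of the hypothalamus of Clic1 knockout (KO) and wild-type (WT) mice. They were taken by symbol from the authors' table of normalized expression, and all 9 were found among its 14351 genes: P2ry12, Tmem119, Cx3cr1, Csf1r, Trem2, Tyrobp, Itgam, Cd68 and Ctss. There was 1 library per mouse, all from males, with KO replicates numbered 2, 4, 6, 8 and 10 (n = 5) and WT replicates numbered 1, 3, 9 and 11 (n = 4). The KO is whole body, so Clic1 is lost from all cell types and not from microglia alone. KO and WT littermates received normal chow, and neither the labels nor the methods give their age at tissue collection. The methods place the KO mice on a CD-1 background, whereas the labels give the strain as C57b/6J. The labels name the hypothalamus as the tissue, but their treatment field mentions perigonadal fat. The 5 neuronal markers summed to 2363 CPM or more in every library. Replicate 10 is named as a KO library in its description and in the column of the table, but its title and treatment label call it WT. It was kept with the KO mice, and the fold change of each of the 9 genes is also given without it.

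Microglia are the resident macrophages of the brain. Undisturbed microglia survey the tissue through purinergic and chemokine receptors, depend on signals through Csf1r for survival, and clear debris through receptors such as Trem2 and through lysosomes. The chloride channel protein Clic1 moves to the membrane in activated microglia and has been linked there to the production of superoxide by NADPH oxidase. Whether the microglial genes differ between KO and WT mice is the question addressed here. In RNA from whole tissue, fewer microglia and less RNA per microglial cell cannot be told apart.

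The steps between the lowest values of each library gave estimated totals of 5.45 to 7.70 M reads in KO replicates 2, 4, 6 and 8, 20.8 M reads in KO replicate 10 and 7.27 to 10.97 M reads in the WT libraries. Clic1 itself was at 0.733 to 1.93 CPM (normalized reads, scaled to library size) in the KO libraries and 3.58 to 5.52 CPM in the WT libraries, without overlap, and KO replicate 10 had 1.43 CPM (log2 fold change -1.80, limma adjusted p = 0.0153). The markers of neurons, astrocytes, oligodendrocytes, endothelium and ependymal cells were all measured (5 of 5 genes of each list). Of the 20 further microglial identity genes, all 20 were measured. By contrast, 0 of 5 markers of monocytes and neutrophils and 4 of 8 markers of perivascular macrophages were among the measured genes.

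For none of the 9 microglial genes was the difference between KO and WT mice larger than the spread between mice by the tests used. In limma with Benjamini-Hochberg adjustment over all genes, 0 of 9 had an adjusted p under 0.05, against 0.286% of all genes, and the adjusted p ranged from 0.828 to 0.988. At an unadjusted p under 0.05 the count was also 0 of 9, against 6.5% of all genes, and limma-voom on estimated reads called 0 of 9 as well. Without KO replicate 10 the count was again 0 of 9, against 0.606% of all genes. The libraries of the groups overlapped for each of the 9, so that 0 of 9 were separated, against 3.41% of all genes, and the two-sided exact permutation p for single genes ranged from 0.127 to 0.857. The fitted log2 fold change, KO minus WT on the log2(CPM + 0.1) scale, was below 0 for 7 genes and above 0 for 2. Its median over the 9 genes was -0.08 with all libraries and -0.09 without KO replicate 10, beside medians of 0.0009 and -0.002 over all genes. The 95% intervals leave room for differences of some size, from -0.28 to 0.13 for Itgam, the narrowest, to -1.04 to 0.19 for Cd68, the widest.

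**Figure D1:**
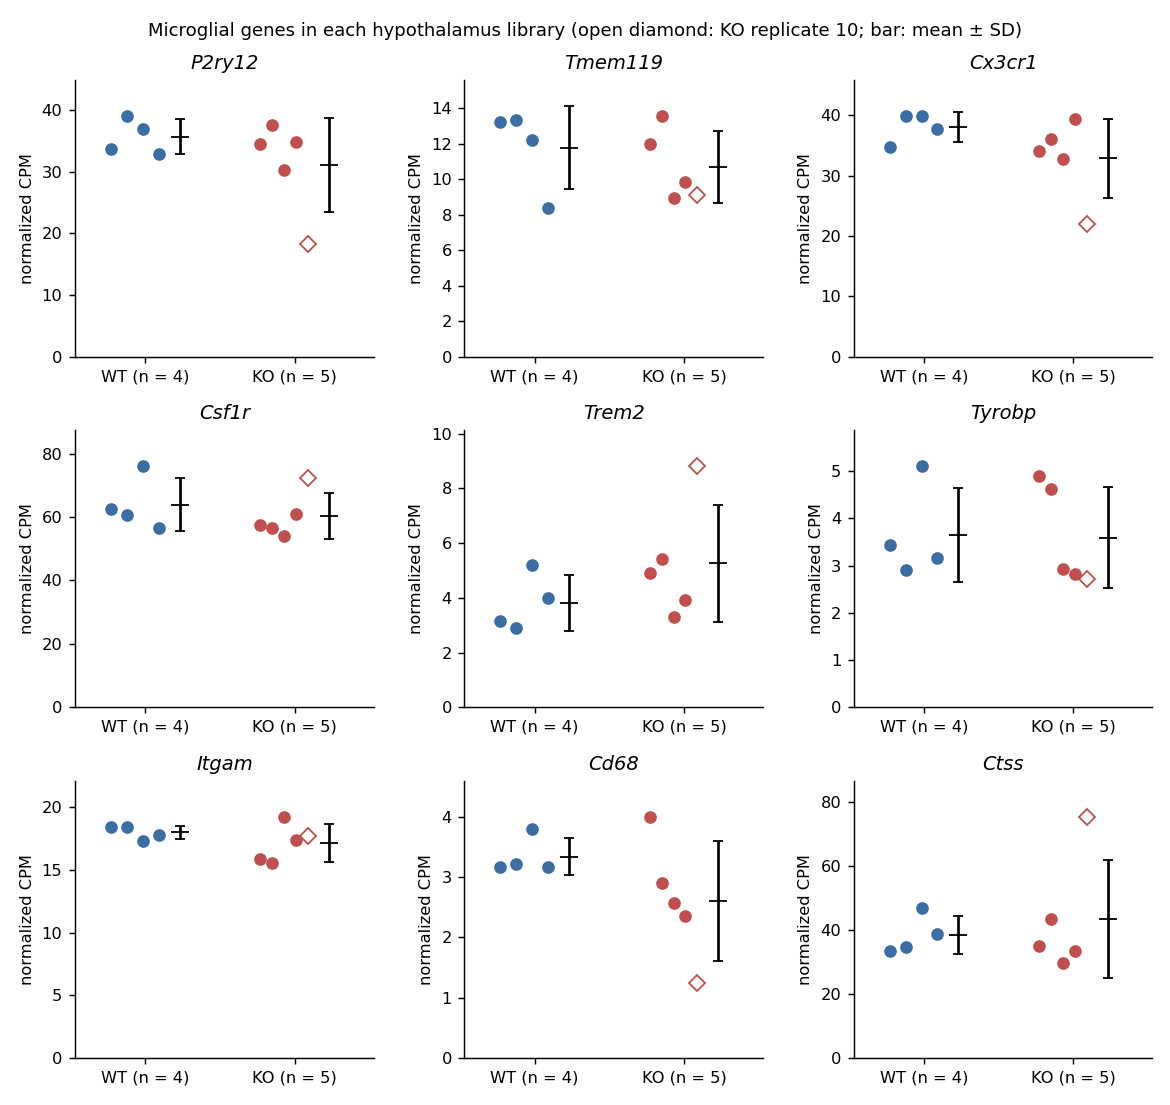
Normalized CPM of the 9 microglial genes (y axes, linear and starting at 0) in 4 WT and 5 KO libraries, 1 point per mouse, with the mean ± SD of each group beside the points. The groups overlap in all 9 panels. KO replicate 10 (open diamond) lies below the other KO libraries for P2ry12, Cx3cr1, Cd68 and, narrowly, Tyrobp. It lies above them for Trem2, Ctss and Csf1r.

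P2ry12 (ENSMUSG00000036353) encodes the purinergic receptor with which resting microglia sense extracellular nucleotides, and maps to chromosome 3 (build GRCm38, used for all positions), 59216272 to 59262871, minus strand. It was measured at 34.5, 37.6, 30.2, 34.9 and 18.3 CPM in KO replicates 2, 4, 6, 8 and 10. The WT replicates 1, 3, 9 and 11 had 33.7, 39.1, 37.0 and 32.9 CPM. KO replicates 2, 4 and 8 lay within the WT range, KO replicate 6 lay just below it, and KO replicate 10 was lower than all of the others. The mean was 31.1 ± 7.62 CPM in the 5 KO and 35.7 ± 2.86 CPM in the 4 WT mice (± SD). On the log2 scale the fold change was -0.24 (SE 0.18, limma adjusted p = 0.857), and the two-sided exact permutation test gave p = 0.317. Without KO replicate 10 it was -0.06.

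Cx3cr1 (ENSMUSG00000052336) encodes the receptor for fractalkine, the neuronal ligand that restrains microglia. Its gene maps to chromosome 9, 119901616 to 120069879, minus strand. The KO libraries had 34.1, 36.0, 32.8, 39.4 and 22.0 CPM in the same order of replicates. The WT libraries had 34.7, 39.9, 39.8 and 37.7 CPM. Here again KO replicate 10 was the lowest library, while the other KO libraries fell within or just below the WT range. Its log2 fold change was -0.23 (SE 0.14, 95% interval -0.55 to 0.08, limma adjusted p = 0.828), the smallest p among the 9 genes, and -0.10 without KO replicate 10. Cx3cl1, which encodes fractalkine, was at 123 CPM in KO replicate 10, while the other KO libraries had 215 to 246 CPM and the WT group 218 to 249.7 CPM. Ligand and receptor thus were both lowest in the same KO library.

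Csf1r (ENSMUSG00000024621) encodes the receptor for the survival factors Csf1 and interleukin 34. By group mean it had the highest CPM of the 9, although Ctss was higher in KO replicate 10, at 75.2 CPM. Csf1r was at 57.5, 56.6, 54.2, 60.9 and 72.4 CPM in the KO libraries and 62.5, 60.6, 75.9 and 56.6 CPM in the WT libraries. KO replicate 10 and WT replicate 9 were high, and the groups overlapped. The log2 difference, KO minus WT, was -0.08 (SE 0.10, limma adjusted p = 0.904). Without WT replicate 9 it was 0.00393, and without KO replicate 10 it was -0.15. The annotation places 15.1% of its exonic bases opposite exons of Hmgxb3, and the strand setting of the counting is not given in the sources used here. Neither ligand gene passed the threshold, with Csf1 at 38.8 ± 2.88 CPM in the 5 KO and 36.8 ± 1.93 CPM in the 4 WT mice (± SD), and Il34 at 13.03 ± 1.028 and 13.7 ± 1.97 CPM.

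Tmem119 (ENSMUSG00000054675), a membrane protein used to tell microglia from blood-derived macrophages, maps to chromosome 5, 113793729 to 113800516, minus strand. KO libraries had 11.98, 13.6, 8.97, 9.85 and 9.10 CPM and WT libraries 13.2, 13.4, 12.2 and 8.40 CPM. The lowest value of all belonged to WT replicate 11 and the highest to KO replicate 4. The log2 fold change of -0.14 (SE 0.17, limma adjusted p = 0.904) came with overlapping groups, and it was -0.08 without KO replicate 10.

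Trem2 (ENSMUSG00000023992) encodes a lipid-binding receptor of phagocytic microglia and maps to chromosome 17, 48346401 to 48354147, plus strand. It is the only one of the 9 genes on the chromosome of Clic1, 13.3 Mb from it. It had 4.89, 5.40, 3.30, 3.91 and 8.80 CPM in the KO libraries and 3.17, 2.90, 5.20 and 3.99 CPM in the WT libraries. The groups overlapped, and KO replicate 10 stood above all other libraries. Its estimated 178 reads there allow 7.56 to 10.2 CPM (exact Poisson 95% interval, counting error only), which does not reach the next library. On the log2 scale the fold change was 0.41 (SE 0.27, 95% interval -0.19 to 1.005, limma adjusted p = 0.844) and 0.20 without KO replicate 10.

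Tyrobp (ENSMUSG00000030579) encodes the adaptor through which Trem2 signals, and maps to chromosome 7, 30413760 to 30417585, plus strand. The KO libraries had 4.89, 4.61, 2.93, 2.81 and 2.72 CPM and the WT libraries 3.44, 2.90, 5.10 and 3.17 CPM. In both groups some libraries were near 5 CPM and others near 3 CPM, with no separation by genotype. Its log2 fold change was -0.03 (SE 0.24, limma adjusted p = 0.988), and it was 0.05 without KO replicate 10. KO replicate 10, which had the highest Trem2, had the lowest Tyrobp. These values rest on few reads, an estimated 16 to 55 per library for Tyrobp and 18 to 178 for Trem2.

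Itgam (ENSMUSG00000030786), the CD11b chain of the integrin complement receptor, maps to chromosome 7, 128062640 to 128118491, plus strand. It varied least of the 9 genes in the fit, with 15.8, 15.6, 19.2, 17.4 and 17.7 CPM in KO and 18.4, 18.4, 17.3 and 17.8 CPM in WT libraries. The log2 difference, KO minus WT, was -0.07 (SE 0.09, limma adjusted p = 0.905), and -0.09 without KO replicate 10, and the KO range enclosed the WT range. The annotation holds Gm49368, a gene on the same strand that shares 68.7% of the exonic bases of Itgam, so the estimated reads of Itgam can depend on how reads were divided. Its partner chain Itgb2 was at 3.70 ± 1.21 CPM in the 5 KO and 4.79 ± 0.767 CPM in the 4 WT mice (± SD), with a log2 fold change of -0.42 (SE 0.26, limma adjusted p = 0.8286).

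Cd68 (ENSMUSG00000018774), a glycoprotein of the lysosomal membrane that rises with phagocytosis, maps to chromosome 11, 69664213 to 69666153, minus strand. It had 3.99, 2.90, 2.56, 2.35 and 1.24 CPM in the KO libraries and 3.17, 3.21, 3.80 and 3.17 CPM in the WT libraries. KO replicates 4, 6, 8 and 10 lay below the WT range, and KO replicate 2 lay above it. On the log2 scale the fold change was -0.43 (SE 0.28, limma adjusted p = 0.837), the largest in size among the 9 genes, and -0.20 without KO replicate 10. Only for Cd68, and only when KO replicate 2 was left out, did the groups not overlap. This outcome was fixed by leaving out the KO library above the WT range. The fit without KO replicate 2 gave -0.60 on the log2 scale (adjusted p = 0.855 from limma). Over all genes, 3.41% did not overlap with all libraries and 6.06% without KO replicate 10. The share without KO replicate 2 is not given here. Cd68 rested on an estimated 14 to 38 reads per library. The 25 reads of KO replicate 10 allow 0.80 to 1.82 CPM (exact Poisson 95% interval, counting error only).

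Ctss (ENSMUSG00000038642), the cysteine protease cathepsin S of microglial lysosomes, maps to chromosome 3, 95526786 to 95556403, plus strand. The KO libraries had 35.0, 43.2, 29.7, 33.5 and 75.2 CPM and the WT libraries 33.5, 34.5, 46.8 and 38.7 CPM. KO replicate 10 was far above all other libraries, and the rest overlapped. The mean of 43.3 ± 18.5 CPM (SD, n = 5) in KO was above the 38.4 ± 6.06 CPM (SD, n = 4) in WT mice, but without replicate 10 the KO mean was 35.3 ± 5.72 CPM. The log2 fold change accordingly was 0.10 (SE 0.23, limma adjusted p = 0.949) with this library and -0.12 without it.

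**Figure D2:**
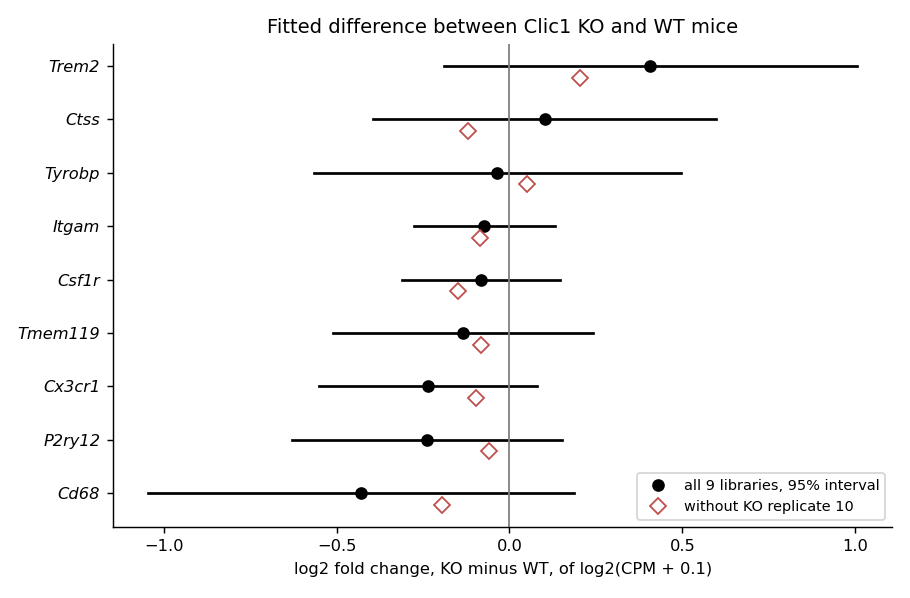
Log2 fold change, KO minus WT, of log2(CPM + 0.1) for the 9 microglial genes, with the 95% interval of the limma fit to all 9 libraries (black) and the estimate without KO replicate 10 (open diamonds). All 9 intervals include 0. Without that library the estimates move towards 0 or past it, except those for Csf1r and Itgam, which move away from 0.

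Of the 9 genes, 3 carry near their start a purine-rich motif of the kind bound by PU.1, the Spi1 product that maintains microglial identity. The motif searched was GAGGAAG on either strand, in promoters of 300 bases (250 before to 50 after the start) from RefSeq on GRCm38.p6. A promoter was held for 6 of the 9 genes, and 3 contained the motif, as did 7 of 16 further microglial identity genes with a promoter and 13.6% of all 32851 promoters. A match is a description of the letters and not a measured site. The windows of 30 bases below, read 5′ to 3′ on the strand of the gene, show one match in each of the 3 genes, with the motif or its reverse complement in capitals. The first window is chr3:95526774-95526803, the second chr7:128062545-128062574 and the third chr17:48346349-48346378, all on the plus strand.
Ctss: atgaaagttcaCTTCCTCattgtggatgct
Itgam: gttttctcccgGAGGAAGgctacagagggc
Trem2: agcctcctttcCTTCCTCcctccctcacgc
Their log2 fold changes were 0.10 for Ctss, -0.07 for Itgam and 0.41 for Trem2, none past the threshold. Spi1 was at 2.25 ± 0.338 CPM in the 5 KO and 2.31 ± 0.482 CPM in the 4 WT mice (± SD), with a log2 fold change of -0.03 (SE 0.22, limma adjusted p = 0.989).

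Because CPM counts more reads on longer transcripts, levels of different genes were compared per kb of the longest annotated coding transcript. In the WT libraries Ctss was highest, at 28.3 ± 4.47 CPM per kb (SD, n = 4), and its range did not overlap that of the next gene. P2ry12 at 15.2 ± 1.22 and Csf1r at 13.6 ± 1.78 CPM per kb followed, and their ranges overlapped. Cx3cr1 at 8.47 ± 0.539 and Tyrobp at 6.12 ± 1.66 CPM per kb also overlapped each other, as did each later neighbour in the order, namely Tmem119 (5.26 ± 1.03), Itgam (3.84 ± 0.115), Trem2 (3.51 ± 0.950) and Cd68 (2.71 ± 0.252 CPM per kb). The KO libraries had the same order for the first 5 genes. Trem2 stood at the sixth place in KO and at the eighth in WT, and its KO range of 3.03 to 8.09 CPM per kb overlapped those of its neighbours.

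KO replicate 10 differed from the other KO libraries in both directions and not by a shift of all microglial genes. It had the lowest of the 9 values for P2ry12, Cx3cr1, Tyrobp and Cd68 and the highest for Trem2 and Ctss. Its deviations from the KO mean ran from -0.93 for Cd68 to 0.88 for Ctss on the log2 scale. Their SD over the 9 genes was 0.64, against 0.12 to 0.29 in the other 8 libraries. At the same time the summed CPM of the 9 genes, 228, was the highest among the KO libraries, the others having 184 to 215. It lay within the range of the WT libraries (202 to 243). The summed markers of astrocytes were 2033 CPM in this library, against 1531 to 1688 CPM elsewhere among the KO mice, and those of oligodendrocytes 2892 against 3220 to 3474 CPM. Their part in the microglial values was not tested. Genes of other cells also moved both ways in KO replicate 10. Of the neuronal markers, Stmn2 (502 CPM) and Tubb3 (346 CPM) were above the other KO libraries and Rbfox3 (96.3 CPM) below them. Snap25 and Syt1 lay within the range of those libraries. The SD of 0.64 was not compared with that of genes outside the 9.

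WT replicate 9 differed in another way, with somewhat higher values of nearly all of the genes. In it 8 of the 9 genes lay above the WT mean, all except Itgam, and the deviation averaged 0.21 over the 9 on the log2 scale. KO replicate 4 had 7 above the KO mean, and WT replicates 1 and 11 had 2 above the WT mean. The lysosomal list summed to 2742 CPM in WT replicate 9 and to 2162 to 2325 CPM in the other WT libraries. Of this list, Cst3 was at 1005 CPM in WT replicate 9 and 609 to 713 CPM in the other WT libraries. The sum was higher still in KO replicate 10, at 2979 CPM. The summed neuronal markers of WT replicate 9 were the lowest of all libraries, at 2363 CPM. Of these, Snap25 (925 CPM), Syt1 (699 CPM) and Rbfox3 (121 CPM) were below the other WT libraries. Tubb3 (330 CPM) was above them, and Stmn2 (287 CPM) lay within their range. The part of tissue composition in this was not tested.

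**Figure D3:**
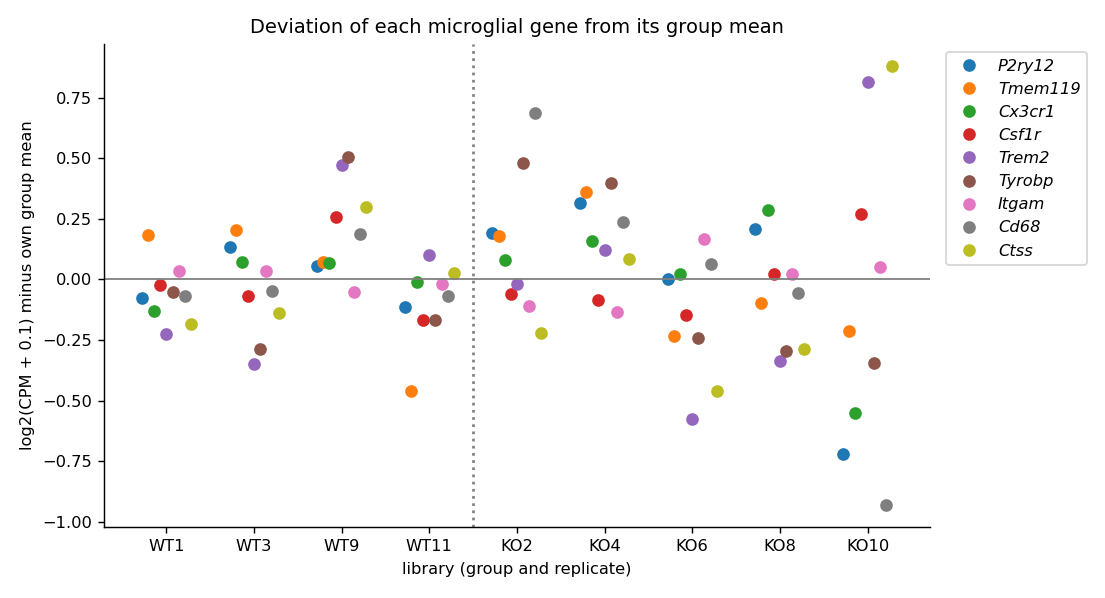
Deviation of log2(CPM + 0.1) from the mean of the gene's own group (y axis) for the 9 microglial genes in each WT and KO library (x axis), 1 coloured point per gene. In KO replicate 10 the points spread from -0.93 to 0.88, whereas in WT replicate 9 they lie above 0 for 8 of the 9 genes.

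As a description of how the genes moved together, values were centred within KO and within WT mice and the 36 pairs of genes were correlated over the 9 libraries. Pearson's r had a median of -0.07 and was above 0 in 17 pairs. Without KO replicate 10 the median was 0.38, with 26 of 36 pairs above 0. It was highest for P2ry12 with Cx3cr1 and for Trem2 with Ctss, both 0.95, and without KO replicate 10 these were 0.66 and 0.94. Tyrobp with Itgam gave the lowest, -0.79, and -0.78 without that library. Trem2 with its adaptor gene Tyrobp gave 0.26 with all libraries and 0.87 without KO replicate 10. Libraries share their depth and normalization, and no test was made. For 15 further microglial identity genes averaging 5 CPM or more, the r with the mean profile of the 9 genes had a median of 0.57, against -0.01 over 12066 genes. It was highest for Laptm5 at 0.79 and C1qc at 0.70 and lowest for Slc2a5, a fructose transporter, at -0.67. The 10 genes most like the mean profile over the 9 libraries were Cyb5r3, Intu, Gdf10, Crhr2, Tpcn2, Hadh, Ftsj1, Cops7a, Lbp and Wdr83os, with r from 0.97 down to 0.88. None of them was on the microglial lists.

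Among the 20 further microglial identity genes limma called 0, and 1, Fcer1g, had an unadjusted p under 0.05. Fold changes were below 0 for 16 of them and above 0 for 4, with a median of -0.18 (-0.12 without KO replicate 10). An example is C1qb, a chain of complement C1q, at 11.3 ± 1.84 CPM in the 5 KO and 13.9 ± 3.62 CPM in the 4 WT mice (± SD). The 3 genes with the smallest p were Fcer1g, Laptm5 and Aif1, with log2 fold changes of -1.23, -0.25 and 0.68 and unadjusted p of 0.02, 0.0546 and 0.0629 in limma. Aif1, which encodes Iba1, the protein by which microglia are usually stained, thus had an estimate opposite in sign to the median of the list. Summed over the 20 genes, the KO libraries had 226 to 283 CPM and the WT libraries 259 to 328 CPM, and these ranges overlapped.

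Genes for the ligands and partners of the 9 genes, for the signalling below them and for their transcription factors did not separate the groups either. Of 13 ligand and partner genes, 12 signalling genes and 8 transcription factor genes measured, 0 had an adjusted or unadjusted p under 0.05 in limma. Their median log2 fold changes were -0.06, 0.03 and 0.04. The smallest p were those of Itgb2, Tgfbr2 and Cx3cl1 in the first list, with log2 fold changes of -0.42, 0.16 and -0.21. In the second they were those of Vav1 (0.36), Lcp2 (-0.26) and Lyn (-0.22), which relay signals from Tyrobp and other immune receptors. In the third they were those of Irf8 (0.30), Mef2c (-0.12) and Cebpa (0.30). Syk, the kinase that Tyrobp recruits, was at 4.40 ± 1.11 CPM in the 5 KO and 4.38 ± 0.425 CPM in the 4 WT mice (± SD).

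No measured lysosomal, disease-associated or inflammatory gene of the lists passed the threshold, although single estimates reached 0.77 on the log2 scale. In the lysosomal list limma called 0 of 16 genes, with a median log2 fold change of -0.06. Ctsc, which encodes the protease that activates granule enzymes of myeloid cells, had an unadjusted p of 0.0109 and was at 6.98 ± 1.94 CPM in the 5 KO and 10.7 ± 1.84 CPM in the 4 WT mice (± SD) (log2 fold change -0.64, standard error 0.21, adjusted p = 0.559). Hexa and Ctsh came next, with log2 fold changes of -0.22 and 0.29. Of the disease-associated microglia genes, 8 of 12 were measured and 0 passed, with a median of 0.07. Spp1, osteopontin, had the highest fold change of them, with 6.44 ± 1.76 CPM in the 5 KO and 3.93 ± 1.02 CPM in the 4 WT mice (± SD), a log2 fold change of 0.69 (SE 0.25, unadjusted p = 0.0175, limma adjusted p = 0.651). The annotation shares 18.8% of its exonic bases with Gm42793 on the same strand. Cd9 (-0.14) and Lyz2 (0.56) followed by p. Of the inflammatory genes 7 of 16 were measured and 0 passed, with a median of 0.05. The cytokine genes Il1b, Tnf and Il6 were not among the measured genes, which the authors had filtered by CPM. Ptgs2, Myd88 and Tlr4 had the smallest p, with log2 fold changes of 0.77, 0.43 and 0.26.

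Clic1 has been linked in microglia to NADPH oxidase, and 5 of the 6 measured subunit genes of that enzyme are described here. The catalytic subunit gene Cybb was at 1.37 ± 0.975 CPM in the 5 KO and 1.14 ± 0.462 CPM in the 4 WT mice (± SD), and its membrane partner Cyba at 1.61 ± 0.677 and 1.89 ± 1.16 CPM. The organizer subunit gene Ncf1 was at 6.79 ± 1.51 and 5.94 ± 0.800 CPM, with a log2 fold change of 0.17 (adjusted p = 0.888 from limma). Rac2 was at 1.73 ± 0.324 and 1.79 ± 0.217 CPM, and Rac1, which most cells express, had a log2 fold change of -0.06 (adjusted p = 0.88 from limma). The KO and WT libraries overlapped for each of these 5 genes.

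**Figure D4:**
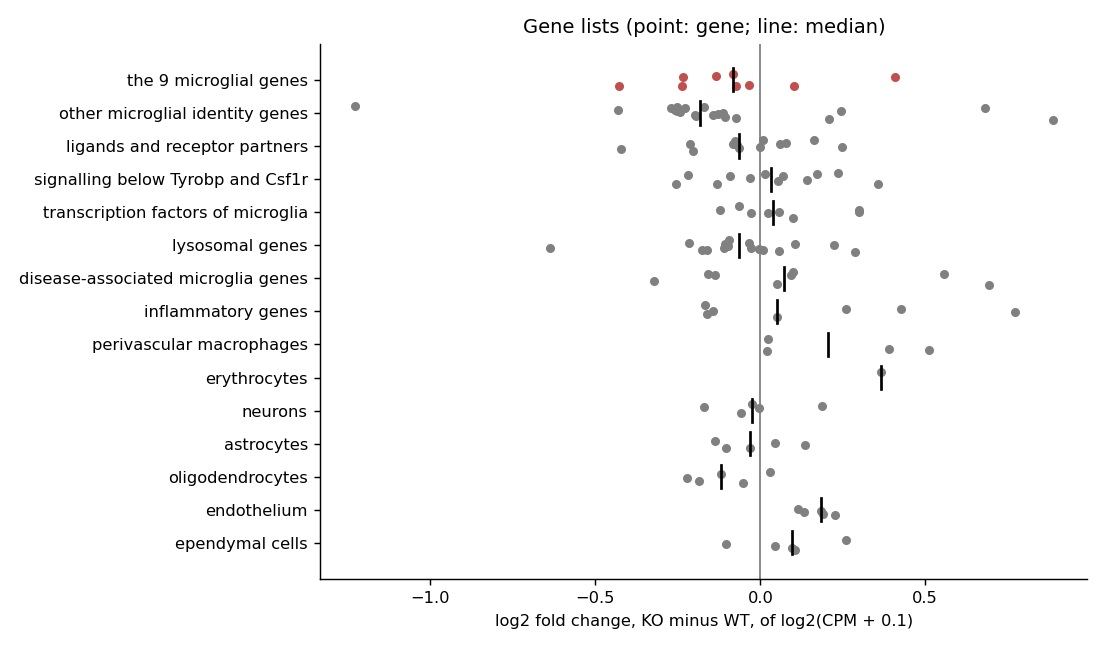
Log2 fold change, KO minus WT, of log2(CPM + 0.1) for each measured gene (points) of the 9 microglial genes and 14 further lists, with the median of each list as a line. The NADPH oxidase subunit genes are not drawn. No gene drawn has an adjusted p under 0.05 in limma. The median is -0.08 for the 9 genes and -0.18 for the 20 further microglial identity genes.

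Markers of other cells were compared as summed CPM per library. Those of perivascular macrophages, the other macrophages of the brain, (4 genes) summed to 11.9 to 29.1 CPM per KO library and 15.3 to 24.1 CPM per WT library, with Mrc1, F13a1 and Stab1 having log2 fold changes of 0.51, 0.39 and 0.02, none past the threshold. Cd163, the other gene, had 0.02. Endothelial markers were the list whose sums did not overlap, though only narrowly. KO sums of this list were 151.7 to 172 CPM and WT sums 144 to 151.2 CPM. Its 5 genes had log2 fold changes of 0.12 to 0.23, with 0 past the threshold and 0 not overlapping by gene. The sums of neurons (KO 2434 to 2672, WT 2363 to 2833 CPM), astrocytes (1531 to 2033 and 1555 to 1794 CPM), oligodendrocytes (2892 to 3474 and 3293 to 3995 CPM) and ependymal cells (30.8 to 37.9 and 32.1 to 40.9 CPM) overlapped. Of the erythrocyte genes 1 of 5 was measured, Alas2, with a log2 fold change of 0.37 that did not pass. The part of these cell types in the microglial values was not tested.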

How the data were processed

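Hypothalamic RNA of 5 KO and 4 WT mice was sequenced from TruSeq libraries, 1 per mouse. The authors trimmed reads with Trimmomatic 0.38, aligned them to GRCm38.p6 with STAR 2.5.1a, estimated counts per gene with RSEM 1.3.0, removed genes without a CPM of at least 1 in at least 5 samples and applied TMM scaling with edgeR. The deposited signal is normalized CPM per gene and library. A further deposited table holds the authors' own KO against WT test (fold changes, test statistics, p-values). None of these were used, and only its gene symbols were joined by Ensembl ID. Left out was 1 column of CPM whose name fits no sample here.

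Values were fitted as log2(CPM + 0.1) with limma 3.58.1 in R 4.3.3 (genotype in the model, eBayes allowing a mean-variance trend). P-values were adjusted after Benjamini and Hochberg over 14351 genes, and 0.05 was the threshold. The methods describe limma-voom on counts, which was run here on estimated reads as an alternative chosen after seeing the data. The value of 1 read was estimated from the steps between values up to 2.5 CPM, of which 81.3% to 86.6% per library were within 0.03 reads of a whole read, since RSEM estimates are fractional. Totals are therefore approximate, and low genes are the least precise. Exact permutation tests used scipy 1.17.1, with 126 arrangements. Nothing states that the mice were taken in separate litters or cages, so p-values measure the spread between these mice. The fit was tested on simulated data. Positions and lengths came from GENCODE mouse release M21 on GRCm38, the build of the alignment.

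The 9 genes and all lists were chosen with earlier results of these data known. The genes named were the 9, Clic1, and in each list those past the threshold and the 3 with the smallest p. Other genes (ligands, partners and examples) were chosen after their values were seen. Some items are not reported here. Alternatives changed the pseudocount, the low-level filter (mean of 5 CPM), the scaling, the variance model or the sample weights, moved replicate 10 to WT, or left out a mouse.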

Additional observations from a re-analysis of the deposited data

Results flagged for a closer look

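Of 28 groups of values tested for a sample far from the others, 1 stood out, against 1.4 expected by chance. Cd68 in WT replicate 9 was 3.80 CPM, and the other 3 WT libraries lay between 3.17 and 3.21 CPM. The difference amounts to a few reads in libraries with an estimated 23 to 38 reads of Cd68.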

How the results depend on the processing

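No paired analysis was possible because the KO and WT libraries share no replicate number. The count of microglial genes past the threshold was 0 in all 19 alternatives. The number of the 9 genes not overlapping between groups was 0 to 1 as each mouse was left out, the 1 being Cd68 without KO replicate 2. Over all genes the share not overlapping was 3.41% with all libraries and 6.06% without KO replicate 10. The median log2 fold change of the 9 genes ranged from -0.15 to -0.01 over 18 alternatives. Of 168 alternative values for single genes, 154 kept their direction, and 14 changed sign without passing the threshold. With replicate 10 grouped as WT the log2 fold change was 0.13 for P2ry12, 0.0593 for Cx3cr1, -0.0403 for Trem2, 0.13 for Tyrobp, 0.0753 for Cd68 and -0.32 for Ctss. With sample weights it was 0.13 for Tyrobp and -0.00187 for Ctss. As each mouse was left out, Csf1r ranged from -0.15 to 0.00393, Tyrobp from -0.15 to 0.13 and Ctss from -0.12 to 0.22. Clic1 lost the threshold in 4 alternatives, namely without WT replicate 1, 3 or 9 and with replicate 10 as WT. Over all genes, 41 passed the threshold. The count was 27 under the filter at 5 CPM, 135 with sample weights, 5 with replicate 10 as WT, and 18 to 87 as each mouse was left out, with 87 without KO replicate 10 and 18 without WT replicate 1. The filter at 5 CPM removed Cd68, Trem2 and Tyrobp from the fit, so no median was taken there. Cause was not tested. Estimated reads limit Cd68, Tyrobp and Trem2 most.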

Other observations

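Fcer1g, the Fc receptor gamma chain that pairs with microglial immune receptors as Tyrobp does, was uneven among WT mice. It was at 2.98, 4.97 and 5.10 CPM in WT replicates 1, 3 and 9 but at 0.826 CPM in WT replicate 11, just below the 0.841 to 1.65 CPM of the 5 KO libraries. The estimated reads were 33, 48 and 51 against 6 in WT replicate 11, and 7 to 17 in the KO libraries. The exact Poisson 95% interval of WT replicate 11, 0.304 to 1.80 CPM, covers counting error only and does not reach the other WT libraries. KO minus WT was -1.23 on the log2 scale (limma adjusted p = 0.669). WT replicate 11 was also the lowest of all 9 libraries for Tmem119. The gene was singled out after its values were seen, and no explanation was tested.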
